A study of Bos taurus with 134 samples.

Results

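The regions described here are the interior windows of bovine chromosomes 18, 19 and 25 in single-cell methylomes of metaphase II (MII) oocytes. They were chosen by position and length alone: a window of at least 5 kb and under 150 kb on 1 of these chromosomes, starting at base 3000000 or later and ending more than 3 Mb below the highest end listed for its chromosome. The rule took 3552 of the 41322 windows in the table (8.596%), of which 1229 lay on chromosome 18, 1547 on chromosome 19 and 776 on chromosome 25. Methylation was available in at least 5 oocytes of each group for 3220 of them (90.7%), and the other 332 were left out. The same rule applied to the other 26 autosomes gave 21867 windows, of which 20536 were used for comparison. Coordinates are on UMD3.1.

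In single-cell bisulfite sequencing (scBS-seq), cytosines without a methyl group are read as thymine, and each window of each oocyte receives the percentage of its CpG calls that were methylated. The 26 IVM oocytes were taken immature, after GnRH alone, from follicles of at most 8 mm and matured in culture for 22 h, whereas the 20 IVO oocytes were collected already mature, 24 h after GnRH, from follicles of at least 8 mm in heifers stimulated with 180 mg of FSH. All came from 4 Holstein heifers of 15 to 18 months, with the IVM and the IVO oocytes of a heifer taken about a month apart. For the IVO collection the heifers were also given progesterone and prostaglandin, and only oocytes with partial or full cumulus expansion were kept as IVO. Culture, FSH stimulation and these other hormones, follicle size, that selection and collection date thus cannot be told apart between the groups. The labels do not say which heifer gave which oocyte. Each group was therefore treated as 1 sample, no test was made, and every SD is a spread over oocytes given as a description. A level is the mean of the IVM mean and the IVO mean of a window, in percent, and a difference is the IVM mean minus the IVO mean, in percentage points.

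In the growing mammalian oocyte, DNA methylation is laid down mainly over transcribed gene bodies, which leaves a mosaic of highly methylated and poorly methylated domains rather than the nearly uniform methylation of most somatic cells. Gene-dense chromosomes pack many short genes and intergenic gaps into each megabase, and they are rich in CpG sites. The study's methods describe windows that hold a set number of CpG sites, and such windows are short where these sites are dense and long where they are sparse.

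The name gene-dense was checked against RefSeq on the ARS-UCD2.0 assembly. Chromosomes 19, 18 and 25 carried 18.8, 18.7 and 16.7 protein-coding genes per Mb, the highest 3 values of the 29 autosomes, and the next was 13.4 on chromosome 23. Counting every window listed, used or not, these chromosomes were also the most densely packed. There were 32.5 windows per Mb on chromosome 19, 32.0 on chromosome 25 and 26.4 on chromosome 18. The other autosomes had 10.2 to 25.5. The used member windows had a median length of 27993 bp, compared with 44085 bp elsewhere. Per oocyte, between 15.4 and 86.2% of the used member windows had a value, with a median of 67.7% in IVM and 56.2% in IVO. The number of CpG calls behind a value is unknown, so no counting interval can be given.

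The members differed from the average of the other autosomes in how the level ran with window length. On that average the level rose with length, whereas the average of the member windows stayed nearly level from the shortest to the longest. Single member chromosomes were less even. Over the steps of length, chromosome 18 ran from 57.3 to 61.6%, chromosome 19 from 54.2 to 64.9% and chromosome 25 from 56.5 to 64.6%. Member windows of 5 to 10 kb averaged 58.7% and those of 100 to 150 kb averaged 59.9%. Elsewhere the corresponding averages were 53.0 and 63.1%, with a step upward at each of the lengths between. The members therefore lay 5.73 points above the others at 5 to 10 kb, 1.31 points above at 30 to 50 kb, and 4.09 points below at 75 to 100 kb.

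**Figure D1:**
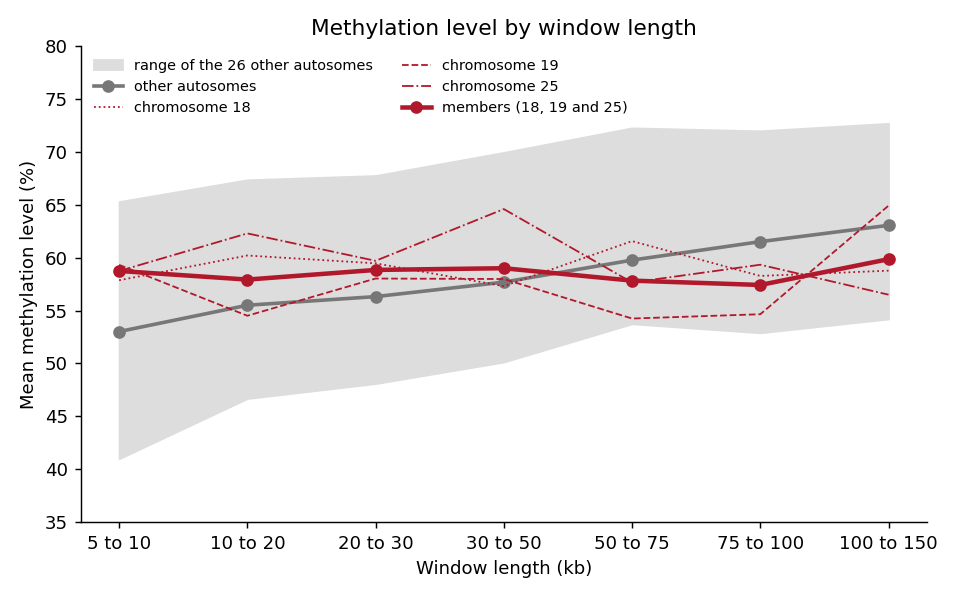
Mean methylation level (percent) by window length (kb) for the member windows (thick red), chromosomes 18, 19 and 25 each (thin red), and the other autosomes (grey, with the range of the 26 chromosome means shaded). The member line stays between 57.4 and 59.9% while the grey line climbs from 53.0 to 63.1%, and they cross between the steps of 30 to 50 kb and 50 to 75 kb.

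The pattern was present in both groups of oocytes. In the shortest windows the members exceeded the others by 6.04 points in IVM and 5.41 points in IVO, and in windows of 75 to 100 kb the gaps were -4.04 and -4.15 points. Over single oocytes, member windows under 20 kb averaged 60.2% ± 5.01 (SD, n = 46) and those of 75 kb or more averaged 60.8% ± 7.60 (SD, n = 46). The other autosomes gave 56.9% ± 5.87 and 63.9% ± 5.66 (SD, n = 46). Long windows were above short ones in 46 of 46 oocytes on the other autosomes but in 22 of 46 on the members. The members were above the others in short windows in 42 of 46 oocytes, and below them in long windows in 42 of 46. All oocytes were read over the same windows, so these counts describe the oocytes and do not add chromosomes.

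**Figure D2:**
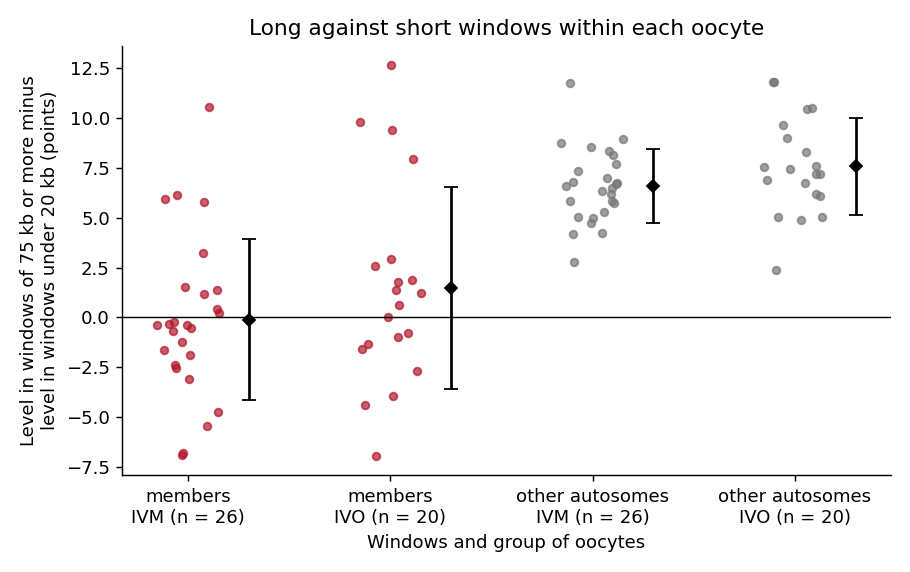
Level in windows of 75 kb or more minus level in windows under 20 kb (percentage points) within each oocyte, for the member windows (red) and the other autosomes (grey), by group, with each point 1 oocyte and the diamond and bar the mean and SD. The member oocytes scatter on both sides of 0, from -6.93 to 12.6, while every oocyte lies above 0 on the other autosomes, from 2.40 to 11.8.

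Taken chromosome by chromosome, the windows of 75 kb or more differed from those under 20 kb by -0.999 points on chromosome 18, 3.26 on chromosome 19 and -3.08 on chromosome 25. The other 26 autosomes ranged from -1.41 to 15.6 points with a median of 7.36. Chromosome 25 was the lowest of all 29, chromosome 18 was in place 4 from the bottom and chromosome 19 in place 8. Chromosomes 14, 21 and 23 were also below 0, at -0.43, -1.41 and -1.16, and chromosomes 29 and 16, at 2.27 and 2.87, were also below chromosome 19. Chromosome 23, the next in gene density after the members, had the lowest slope of level on length of all 29, so the flat profile was not confined to the members. The shift of the members against the others was -7.28 points over window means. Within single oocytes it averaged -6.43 ± 4.29 points (SD, n = 46). Over the other 26 autosomes, the SD of long minus short windows was 4.80 points.

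Under 20 kb, chromosome 25 averaged 61.0% and chromosome 18 averaged 59.5%, in places 2 and 3 of 29 after chromosome 22 at 65.6%. Chromosome 19 averaged 56.0% at this length, in place 14. At 75 kb or more the members lay together near the lower end: 58.0% on chromosome 25, 58.5% on chromosome 18 and 59.2% on chromosome 19, in places 5, 6 and 7 from the lowest. The value of chromosome 19 pools 54.7% at 75 to 100 kb (66 windows) with 64.9% at 100 to 150 kb (53 windows). At 100 to 150 kb chromosome 19 was thus above the 63.1% of the other autosomes, and chromosomes 18 and 25 were below it, at 58.8 and 56.5%.

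The share of highly methylated windows fell with length on the members and was about the same at both ends elsewhere. Of the member windows of 5 to 10 kb, 32.7% were at 80% or more, against 23.4% elsewhere. At 100 to 150 kb the shares were 16.8 and 23.3%. Fully methylated values moved likewise: on average per window, 38.5% of the single-oocyte values in member windows of 5 to 10 kb were exactly 100%, falling to 26.6% at 100 to 150 kb, while elsewhere they stayed between 31.0 and 34.1%. Poorly methylated windows, under 20%, became rarer with length in both sets, from 12.6 to 1.08% on the members and from 13.4 to 0.03% elsewhere. Short windows had been measured in fewer oocytes, a mean of 18.6 at 5 to 10 kb and 36.1 at 100 to 150 kb for the members, and 20.8 and 35.2 for the others. The shift of long against short windows, members against others, correlated with the number of windows measured at r = -0.39 (rho = -0.06) over the 26 IVM oocytes and r = -0.70 (rho = -0.66) over the 20 IVO oocytes, given as descriptions. The 4 oocytes in which it was above 0 had at most 11164 windows measured. It was below 0 in 36 of 36 oocytes with at least 15000, averaging -7.56 ± 2.42 points (SD, n = 36), and -7.39 points over window means of these oocytes alone.

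Averaged over all lengths, the mean level of the members was 58.5%, against 57.2% on the other autosomes at the members' lengths. Within single oocytes the gap averaged 0.90 ± 1.78 points (SD, n = 46) and was above 0 in 35 of 46. The gap of 1.25 points over window means turned to -0.23 where a minimum of 10 oocytes per group was asked and to -0.034 without matching on length. At matched length chromosome 25 averaged 60.8%, chromosome 18 averaged 59.2% and chromosome 19 averaged 57.0%. The other autosomes ran from 52.8% on chromosome 12 to 68.4% on chromosome 22, with an SD over autosomes of 3.20. From the lowest, chromosome 19 took place 16 of 29, chromosome 18 place 23 and chromosome 25 place 27.

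**Figure D3:**
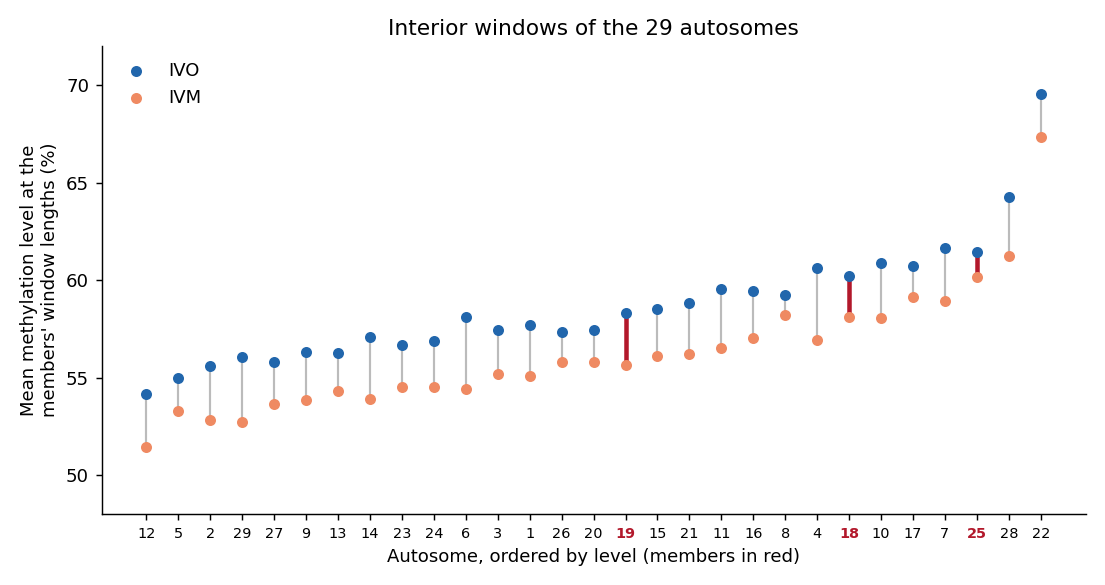
Mean methylation level (percent) of interior windows at the members' lengths for the 29 autosomes, ordered by level, with IVM (orange) and IVO (blue) joined by a line that is red for chromosomes 18, 19 and 25. IVM lies below IVO on all 29, and the members sit in places 16, 23 and 27 from the lowest, inside the range of the others.

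The member windows covered the whole scale. Levels ran from 19.8% at the 5th percentile through a median of 58.6% to 95.1% at the 95th. Of the 3220 windows, 780 (24.2%) were at 80% or more, 168 (5.22%) were under 20% and 2272 (70.6%) lay between. At matched length the other autosomes had 23.7% and 6.20% in the high and the low class. Chromosome 25 had the largest high class of the members, 28.5%, and chromosome 19 the largest low class, 6.48%.

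Along the chromosomes, the 780 highly methylated windows formed some long blocks, and the 168 poorly methylated ones mostly stood alone among the used windows. The classes held 24.2 and 5.22% of the used windows, and a rarer class breaks into more single windows by its size alone. The runs of the classes therefore cannot be compared directly, and runs on the other autosomes are not given here. Of the runs at 80% or more, 84 of 144 on chromosome 18, 109 of 180 on chromosome 19 and 43 of 90 on chromosome 25 held a single window. On chromosome 18, 19 used windows in a row, spanning 603.0 kb at chr18:5387569-5990612, were all at 80% or more, with a mean of 90.7%. The longest such runs elsewhere were 10 windows on chromosome 25 (chr25:10729996-11035344, mean 93.0%) and 8 on chromosome 19 (chr19:55130304-55203901, mean 91.7%). For windows under 20%, 36 of 41 runs on chromosome 18, 66 of 77 on chromosome 19 and 22 of 26 on chromosome 25 held a single window, and no run was longer than 3. With a limit of 40%, longer low domains appeared. Chromosome 19 had 11 such windows in a row over 321.6 kb at chr19:54786713-55108361, with a mean of 21.8%, and the run of 8 highly methylated windows named above began 21.9 kb beyond its end.

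Stretches of 1 Mb with at least 10 used windows gave the same mosaic at a coarser grain. Their levels ran from 37.3 to 81.5% over 130 stretches, with a median of 58.0% and an SD of 9.69. The highest was chr18:5000001-6000000, at 81.5% over 31 windows, and the lowest was chr18:61000001-62000000, at 37.3% over 10 windows. On chromosome 19 the extremes were 77.9% at chr19:47000001-48000000 and 39.0% at chr19:16000001-17000000. On chromosome 25 they were 79.4% at chr25:13000001-14000000 and 37.9% at chr25:32000001-33000000, and 6 of the 18 windows of that low stretch were under 20%.

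The most methylated windows were close to saturation in single oocytes. At chr19:14286425-14293275, 25 of 25 IVM oocytes read 100%, and the 19 IVO oocytes had a lowest value of 80.0%, a median of 100% and 18 values of 100%. The window chr19:52386726-52403456 ran from 96.0% in IVM (median 100%, n = 17) and from 92.9% in IVO (median 100%, n = 16) up to 100%. On chromosome 18, chr18:11028283-11045745 read 85.7 to 100% in 14 IVM oocytes and 100% in 10 of 10 IVO oocytes. On chromosome 25, the lowest value at chr25:8629941-8655502 was 90.0% among 20 IVM and 80.0% among 14 IVO oocytes, and both medians were 100%. The groups overlapped in each of these windows.

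At the other end, again among windows measured in at least 13 IVM and 10 IVO oocytes, chr19:57020163-57039146 had the lowest level, 9.88%. Its IVM values ran from 0 to 66.7% with a median of 0 (n = 22), and its IVO values from 0 to 100% with a median of 0 (n = 20), so that 17 IVM and 15 IVO oocytes were at 0 and a few stood high. A different kind of low window was chr25:32470908-32540574, which is 69667 bp long. No oocyte was at 0 there: IVM values ran from 5.07 through 9.54 to 39.7% (n = 22) and IVO values from 3.46 through 9.09 to 38.7% (n = 17). On chromosome 18, chr18:57278442-57309817 ran from 0 through 10.5 to 33.3% in IVM (n = 13) and from 0 through 0 to 42.9% in IVO (n = 11). IVM and IVO overlapped in all 3 windows.

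IVM and IVO oocytes were compared next, to see whether the route of maturation went with a different methylome. On the member windows IVM averaged 57.4% and IVO 59.6%, a difference of -2.21 points. The other autosomes at matched length differed by -2.41 points. The gap between these differences was 0.197 points, and it was -0.00056 without chromosome 25. Within single oocytes the members exceeded the others by 0.95 ± 1.57 points in IVM (SD, n = 26) and by 0.84 ± 2.06 in IVO (SD, n = 20). Over single oocytes the IVM level of the members was 59.5% ± 5.92 (SD, n = 26), from 51.2 through 57.4 to 75.3%. The IVO level was 61.8% ± 4.70 (SD, n = 20), from 57.4 through 60.9 to 74.3%. The difference of these oocyte means, -2.27 points, was smaller than the spread over oocytes, and the IVO range lay inside the IVM range. That difference of oocyte means was -2.07 points with IVM libraries 1 to 18 and -2.73 with IVM libraries 39 to 46. These carry separate runs of library numbers, and both were set against the same IVO libraries 19 to 38.

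The level of an oocyte moved with its coverage. The correlation of the member level with the number of windows measured was r = -0.91 (rho = -0.69) over the 26 IVM oocytes and r = -0.77 (rho = -0.80) over the 20 IVO oocytes, as a description of libraries that also share their preparation. IVM oocytes had a median of 27420.5 windows measured in the whole table, and IVO oocytes 23134.5. The part of coverage in the difference of -2.21 points was not tested, and that difference was -2.38 when only libraries with at least 15000 windows measured were kept.

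By chromosome, at matched length, the difference was -2.67 points on chromosome 19, -2.09 on chromosome 18 and -1.32 on chromosome 25. The other autosomes ran from -3.70 on chromosome 4 to -1.07 on chromosome 8. The members therefore took places 11, 22 and 28 of 29 from the lowest, and all lay within the range of the rest. On chromosome 25 IVM and IVO were closest in windows of 20 to 50 kb, with differences of -0.03 at 20 to 30 kb and -0.24 at 30 to 50 kb, and was at -4.26 at 100 to 150 kb. The difference was most negative in windows of intermediate methylation: member windows between 20 and 80% differed by -2.78 points, those of 80% or more by -0.998 and those under 20% by -0.15. The other autosomes gave -3.16, -1.06 and 0.83 points for the same classes, which were cut from the same values.

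Single windows spread widely around this small mean. Of the 3220 member windows, 842 (26.1%) were lower in IVM by 10 points or more and 524 (16.3%) were higher by 10 points or more. Over the 34439 windows of the whole table with 5 or more oocytes per group, the shares were 24.9% lower and 14.1% higher. The members' shares were thus near this background, and at matched length the other autosomes gave 25.7 and 15.9%. The share lower by 10 points was 26.1% on chromosome 18, 27.3% on chromosome 19 and 23.9% on chromosome 25.

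**Figure D4:**
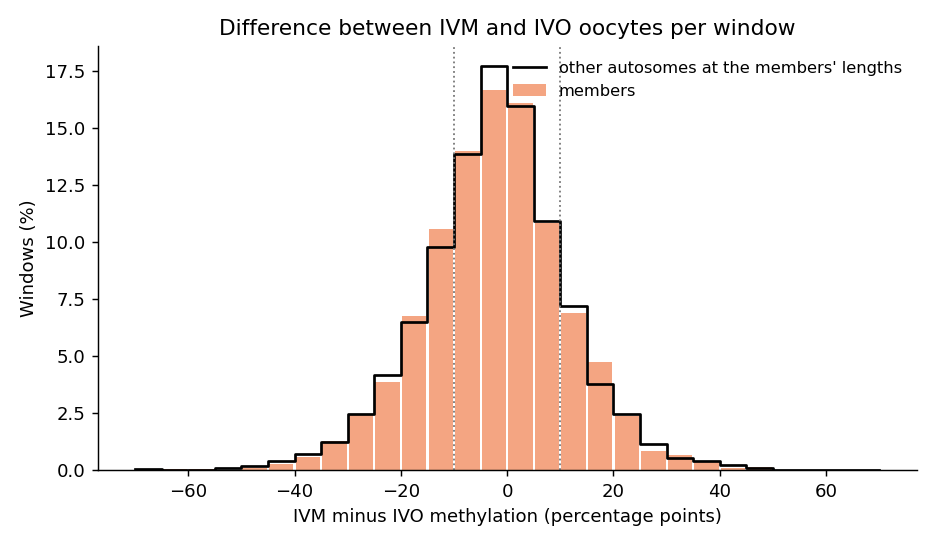
Percentage of windows in steps of 5 percentage points of the IVM minus IVO difference, for the member windows (bars) and the other autosomes at the members' lengths (black line), with dotted lines at -10 and 10 points. The outlines lie over each other, with 26.1% of the members at or below -10 points and 16.3% at or above 10 points.

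The windows with the most negative differences that kept their sign with both runs of IVM libraries lay on chromosomes 19 and 25. At chr19:26922670-26964356, IVM values ran from 0 through 10.2 to 60.0% (n = 14) and IVO values from 0 through 100 to 100% (n = 12). Only 1 of 14 IVM oocytes was at 50% or more, against 10 of 12 IVO oocytes, and the difference of the means was -64.4 points. At chr19:20698676-20709680, IVM ran from 0 through 75.0 to 100% (n = 22) and IVO from 66.7 through 100 to 100% (n = 15), a difference of -42.6 points. All 15 IVO oocytes were at 50% or more there, whereas 12 of 22 IVM oocytes were. At chr25:39528105-39538834, IVM ran from 2.22 through 32.9 to 100% (n = 20) and IVO from 42.9 through 100 to 100% (n = 14), a difference of -41.5 points. The groups overlapped in each window.

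Among the same windows, the most positive differences were smaller. Over all used members, differences ran from the step of -70 to -65 points to that of 55 to 60 points. At chr19:38497063-38515362, IVM values ran from 0 through 33.3 to 100% (n = 19) and IVO values from 0 through 0 to 40.0% (n = 11), and the means differed by 40.0 points. At chr19:34104755-34150684, IVM ran from 34.0 through 84.4 to 100% (n = 14) and IVO from 0 through 43.6 to 90.0% (n = 12), a difference of 39.4 points. At chr18:57604949-57626251, IVM ran from 0 through 58.8 to 100% (n = 21) and IVO from 0 through 25.0 to 77.8% (n = 12), a difference of 32.0 points. These windows were picked as the extremes of 1012 windows that kept their sign, so their size describes the tails and is no estimate for other oocytes.

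At 1 Mb the differences were far narrower. They ran from -9.81 to 6.25 points over the 130 stretches, with a median of -2.17, and 102 of 130 were below 0. The most negative was chr19:59000001-60000000, where 25 of 32 windows were lower in IVM and the IVM oocytes ran from 31.1 through 51.0 to 78.0% while the IVO oocytes ran from 40.9 through 64.0 to 100%. The most positive was chr18:15000001-16000000, at 6.25 points over 11 windows, of which 5 were lower in IVM.

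A window's level resembled that of its neighbours, and no likeness was seen for its difference. Over 3438 pairs of member windows with midpoints under 50 kb apart, levels correlated with r = 0.36, which fell to 0.20 at 50 to 100 kb (4509 pairs) and to 0.04 at 500 to 1000 kb (38339 pairs). The IVM minus IVO differences of the same pairs under 50 kb had r = -0.01. The pairs share windows and oocytes, so these values are descriptions. Per member window a difference rested on a mean of 15.4 IVM and 10.6 IVO oocytes, with a mean SD over oocytes of 29.1 points. With such spread, an r near 0 cannot tell whether neighbours share a difference. Levels on the other autosomes had r = 0.47 under 50 kb, but there the windows were longer. Among windows of 20 to 50 kb with midpoints under 100 kb apart, r was 0.33 on chromosome 18, 0.32 on chromosome 19 and 0.29 on chromosome 25, within the 0.17 to 0.72 of the other autosomes (median 0.36). For the differences of the same pairs, r was -0.08 on chromosome 18, 0.10 on chromosome 19 and -0.07 on chromosome 25. The other autosomes ran from -0.07 to 0.26 (median 0.03).

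Genes could be placed on the windows only where the coordinates of their bodies on this build were at hand, which held for 71 landmark genes in 5 lists. Of these, 54 had their midpoint in a used member window, 8 fell in windows outside the rule, 5 in windows with too few oocytes and 4 between windows. The coordinates came from a table cut to genes at the low end of its own IVM and IVO difference, so no difference between IVM and IVO is read from these windows. The mean level is given for each gene named, and the number of oocytes for some. Some windows held only part of the gene: 35.0% of FASN, 57.4% of HNRNPUL1 and 61.9% of TK1. FASN was measured in 9 IVM and 5 IVO oocytes, and TK1 in 5 IVM and 6 IVO oocytes.

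Windows of genes used by nearly every cell ranged from 33.4% at VPS35 to 89.2% at HNRNPUL1, with a median of 61.6% over 20 windows. VPS35 encodes the core subunit of the retromer, which recycles membrane proteins from endosomes. HNRNPUL1 encodes a nuclear RNA-binding protein. EIF4A3, a helicase of the exon junction complex, was the other gene at 80% or more, at 85.3%. COX4I1, a subunit of cytochrome c oxidase, stood at 78.5%. PFN1, encoding the actin-binding profilin, was lower at 46.0%.

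Windows of genes confined to particular tissues included lower ones. Their 25 windows, which held 26 genes, had a median of 51.5%, and 9 of them (36.0%) were under 40%, against 1 of 20 in the former list and 877 of all 3220 used members (27.2%). The lowest held CLEC10A, a lectin receptor of macrophages, at 15.2%. It was measured in 9 IVM and 5 IVO oocytes, none of them above 50.0%. KRT15, a keratin of basal epithelium, was at 19.4% and SOST, encoding the bone inhibitor sclerostin, at 20.1%. The highest held LGALS4, a galectin of the gut epithelium, at 90.9%, measured in all 46 oocytes with both medians at 100%. Over all used members the median was 58.6%, between the medians of these lists, and the ranges of the lists overlapped over most of their length.

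The homeobox gene HOXB7, which helps to pattern the body axis, lay in a low block on chromosome 19. Its window, chr19:38515370-38530520, stood at 19.4%, measured in 22 IVM and 18 IVO oocytes. It opened a run of 3 used windows under 20%, ending at base 38557170, whose other members stood at 14.0 and 12.4%. Those rested on 6 IVM and 6 IVO oocytes, and on 5 IVM and 10 IVO oocytes. Between them and the window of HOXB7 lay chr19:38532936-38538062, at 27.1%, left out because only 3 IVO oocytes measured it. The window just before that of HOXB7 is chr19:38497063-38515362, named above for its difference of 40.0 points, at a level of 26.6%. At lower coordinates, the window of HOXB13 (chr19:38413951-38431582) stood at 63.5%, with values from 0 to 100% in both groups, and the next at 73.9%. This neighbourhood was chosen for description after its values were seen.

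Among genes of cell division, the 5 windows ran from 28.3% at PSMC3IP, a cofactor of meiotic recombination, through 56.8% at TOP2A and 69.5% at BIRC5 to 84.3% at TK1. TOP2A encodes the topoisomerase that untangles chromosomes, BIRC5 encodes survivin of the chromosomal passenger complex, and TK1 encodes a thymidine kinase. Of the genes of fatty acid metabolism, CPT1C, a carnitine palmitoyltransferase of the brain, was at 38.7% and FASN, the fatty acid synthase, at 91.2%. The window of ZNF331, an imprinted zinc finger gene in several mammals, was at 44.6%, with values from 0 to 100% in each group (9 IVM and 5 IVO oocytes).

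**Figure D5:**
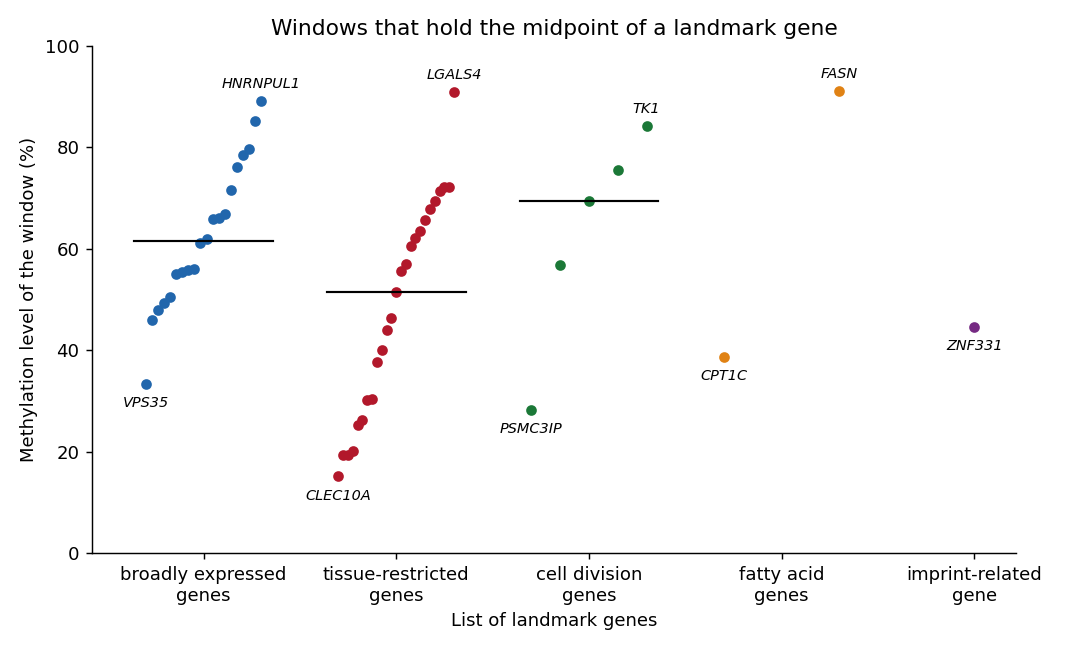
Methylation level (percent, mean of the IVM and IVO means) of member windows that hold the midpoint of a landmark gene, by list, with each point 1 window, a line at the median of lists of 3 or more, and the lowest and highest gene named. The tissue-restricted genes reach down to 15.2% at CLEC10A, and the broadly expressed genes end at 33.4% at VPS35.

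Single-oocyte values varied widely within a member window. The mean SD over oocytes in a window was 29.1 points, against 28.9 on the other autosomes at matched length, and it was 33.6 in windows between 20 and 80%. This SD also holds the counting error of values that rest on an unknown number of CpG calls. Of all single-oocyte values in member windows, 14.4% were exactly 0 and 33.4% exactly 100 on average per window. Chromosome 18 had the third highest SD of the 29 autosomes, 29.8, and chromosome 25 the fifth lowest, 28.1, inside the 27.3 to 30.6 of the others.

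The limits of the rule fell between unlike windows at some points. On these 3 chromosomes the 51 windows of 4 to 5 kb, just outside, averaged 47.1%, and the 57 of 5 to 6 kb, just inside, averaged 58.7%. The profile of level by length starts at that limit, and windows under 5 kb are not part of it. At the upper limit the 55 windows of 130 to 150 kb averaged 60.9% and the 26 of 150 to 170 kb averaged 60.8%. From 2 to 3 Mb from the first base, outside, the level was 56.6% (64 windows), and from 3 to 4 Mb, inside, it was 69.5% (47 windows). At the far end it was 50.5% from 2 to 3 Mb (91 windows) and 56.2% from 3 to 4 Mb (83 windows).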

How the data were processed

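The bisulfite libraries of 46 MII oocytes were used (26 IVM, 20 IVO), grouped by title. The authors trimmed the reads (Trim Galore 0.4.4), aligned them with Bismark 0.18.2 and removed duplicates. The build is UMD3.1 in the submitters' processing notes and UMD3.1.1 in the study's methods. The authors deposited the percent of methylated CpG calls per window and oocyte, without the number of calls, so depth is unknown. The sources used here differ on the number of CpG sites per window. No 2 oocytes had identical values (1035 pairs).

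Windows measured in at least 5 oocytes per group were kept. The other autosomes were averaged in 7 length bins (edges at 5, 10, 20, 30, 50, 75, 100 and 150 kb) weighted by the members' numbers. Named windows were the highest and lowest 2 levels per chromosome and the highest and lowest 3 differences among windows measured in 13 IVM and 10 IVO oocytes (the differences with the same sign for IVM libraries 1 to 18 and 39 to 46), the extreme 1 Mb stretches, the longest runs and the landmark genes, of which those in the text are the ends of each list and examples, and 1 listed gene is not reported here. The members and lists were chosen with earlier results of these data known. No test was made, because the labels name no heifer per oocyte and windows are not replicates. The code was tested on simulated data. The expression table lists genes by number and was not used. No sequence is shown, as a genome of this build was not used here. Alternatives covered the oocyte minimum, library runs, shallow libraries, the average, chromosomes, end distance, matching and limits. The code ran in Python 3.11.15 with pandas 2.3.3, numpy 2.4.6 and scipy 1.17.1, and matplotlib 3.10.9 drew the figures.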

Additional observations from a re-analysis of the deposited data

How the results depend on the processing

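The 1.25-point gap in level between the members and the other autosomes kept its direction under 11 of 13 alternatives, and was -0.23 with at least 10 oocytes per group and -0.034 without matching on length. The IVM minus IVO difference of the members stayed between -2.97 and -1.87 under 10 of 11 alternatives. It was 0.765 once each oocyte was centred on its mean over the interior windows of the other autosomes. Under that centring the members exceeded the other autosomes by only 0.12 points, so the others were not at 0 either. The difference from the other autosomes was positive under 12 of 13 alternatives and -0.00056 without chromosome 25. The shift of long against short windows, for which all alternatives were added after the data were seen, was between -9.53 and -6.22 under each of 11. With the median over oocytes in a window, the share at 80% or more became 36.6% and the share under 20% became 13.8%. The low share was 1.86% with at least 10 oocytes per group, 3.42% with IVM libraries 39 to 46 alone and 9.47% with limits of 25 and 75%. At 20 points in place of 10, 8.79% of the members were lower and 4.63% higher in IVM. No paired analysis was possible because the labels tie no IVM oocyte to an IVO oocyte. Single oocytes were not left out in turn, so values of windows measured in few oocytes, down to 5 per group, were not checked for resting on 1 of them. The number of CpG calls behind a value is unknown.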
